A study of Mus musculus with 18 samples.

Results

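The genes described here act at the contact between axon and myelinating glia: the contactins Cntn1 and Cntn2, the Caspr genes Cntnap1 and Cntnap2, the cytoskeletal adaptor Epb41l3, and the cell adhesion molecules Cadm1, Cadm2, Cadm3 and Cadm4. They were chosen by name, and every probe whose accession matched one of them was counted. That gave 15 probes for 9 genes, among 22854 features tested in all. At least 1 probe of each gene was well above background on all 18 arrays, and the brightest probe of each stood for the gene. The second Cntn2 probe was the 1 that did not pass, being well above background on 4, 0 and 1 of 6 arrays at days 0, 10 and 22.

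The cultures were explants of dorsal root ganglia, the clusters of sensory neurons beside the spinal cord, taken with their glia from wild-type C57BL/6J embryos at E13.5. All groups had first spent 12 days on matrigel in growth medium. Day 0 cultures, labelled control, were collected just before the switch to myelination medium, day 10 cultures at early myelination, and day 22 cultures when mature sheaths were abundant. Each day held 3 batches, which are pools of embryos collected at different times, and 2 technical arrays per batch. Since no culture stayed in growth medium, the medium and the passing of time cannot be told apart. The composition of either medium is not given in the sources used here.

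At the paranode, where the loops of a myelin sheath end on the axon, contactin and Caspr (Cntn1 and Cntnap1) form a complex on the axon that meets a glial isoform of neurofascin. Beside it, at the juxtaparanode, Cntn2 on axon and glia and the axonal Caspr2 (Cntnap2) hold potassium channels in place. Epb41l3 encodes a band-4.1-family protein under the axonal membrane that ties both complexes to the cytoskeleton. Along the internode, Cadm4 on the Schwann cell binds Cadm3 on the axon. Cadm1 and Cadm2 are relatives of these immunoglobulin-domain molecules, and Cadm1 is best known from synapses.

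The genes of this set did not move as 1 group. Cadm1, Cadm4 and Epb41l3 were lower at day 22 than at day 0, and Cadm3 was higher on its brightest probe. Cadm1 and Cadm4 were already lower at day 10. The paranodal and juxtaparanodal members (Cntn1, Cntnap1, Cntn2 and Cntnap2) did not pass the test in any comparison in both fits described next. The levels of Cntn1, Cntnap1 and Cntnap2 went with those of neuronal marker genes from array to array.

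Levels are log2 of the processed spot intensity minus the log2 of the 75th percentile of that array, so a level of 0 is the brightness of that percentile. Differences were tested with limma on the 9 batch means, with Benjamini-Hochberg adjustment over the 22854 features and a threshold of 0.05. The authors' value table places 12 of its 18 columns with the array file of another sample of the same day, so the batch of those arrays is uncertain while their day is not. Each fit was therefore run with the batches as the arrays are filed (file batches) and as the value table has them (table batches). A gene is said here to rise or fall where it passed in both fits, and adjusted p-values are given in that order. A bulk culture does not tell fewer cells of a type from less RNA per cell.

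The arrays correlated with the others of their day at a median r of 0.975 to 0.993. Between the 2 arrays of a batch, the median absolute difference over all features was 0.143 to 0.311 with file batches and 0.127 to 0.246 with table batches. Some arrays differed from the others of their day. The second array of batch 1 at day 0, called here the array that stood apart, had the lowest neuronal marker mean of its day (3.77, against 4.52 to 4.80 on the other 5 arrays), and was the lowest of its day for 5 of the 9 genes and the highest for 3. The first array of batch 1 at day 22 had the lowest r of all (0.975) and a myelinating Schwann cell mean of 4.07, against 4.92 to 5.48 on the other 5 arrays. The second arrays of batch 2 at day 10 and of batch 1 at day 22 were each the lowest of their day for 6 genes. Results are also given without the day 0 array or the first day 22 array where that changes them.

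**Figure D1:**
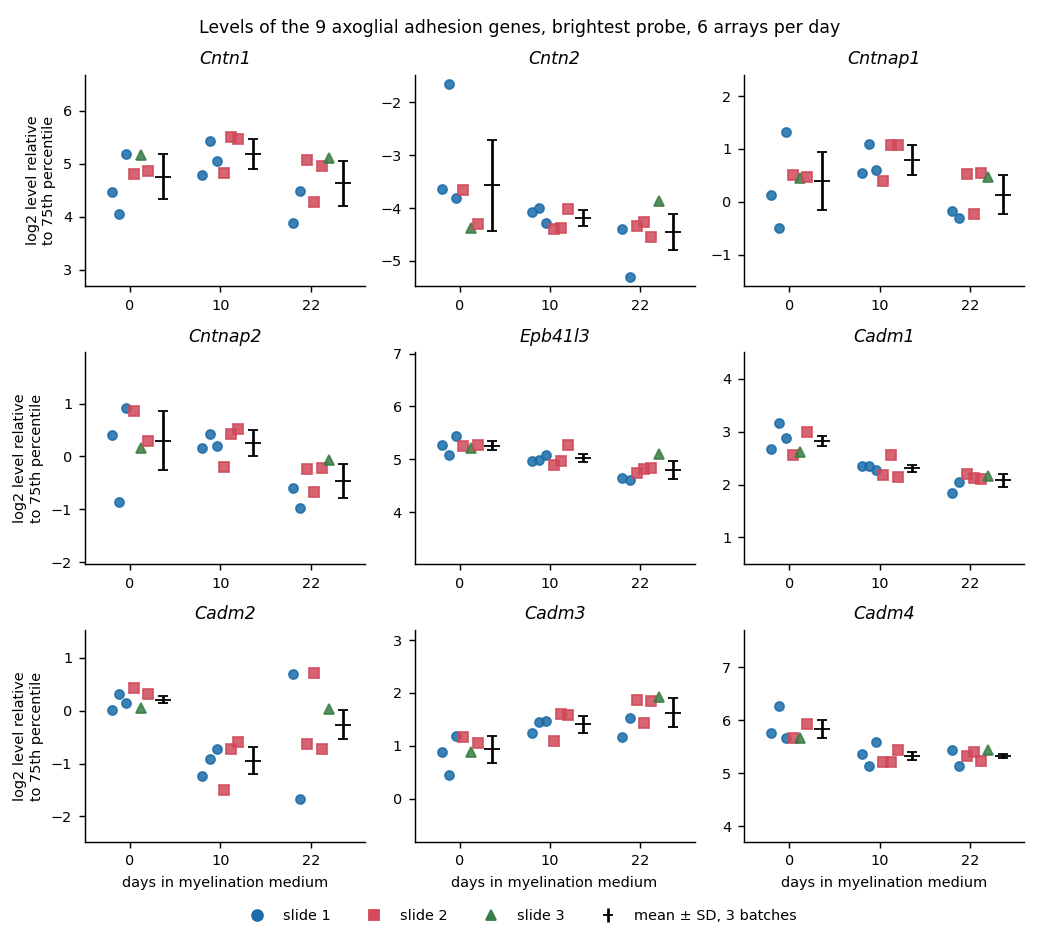
Levels of the 9 genes (log2, on the scale above) on the 6 arrays of each day, by slide. Beside them stands the mean ± SD of the 3 file batches. All panels span the same number of log2 units. Cadm4 drops between days 0 and 10, Cadm1 over the course, Cadm3 climbs, and Cadm2 fans out at day 22 between -1.66 and 0.71.

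Cntn1, the axonal contactin of the paranode, had array levels of 4.05 to 5.18 (median 4.84) at day 0, 4.78 to 5.50 (median 5.24) at day 10 and 3.88 to 5.11 (median 4.73) at day 22. Its partner Cntnap1 ran from -0.50 to 1.32 (median 0.46) at day 0, from 0.40 to 1.09 (median 0.84) at day 10 and from -0.30 to 0.55 (median 0.14) at day 22. For both genes the day 10 arrays were the tightest and the 3 days overlapped.

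Cntn1 averaged 5.18 ± 0.28 at day 10 and 4.76 ± 0.43 at day 0 (SD, n = 3 batches each), a difference of 0.42 ± 0.28 (SE, limma adjusted p = 0.294 and 0.324). Cntnap1 averaged 0.80 ± 0.28 at day 10 and 0.39 ± 0.55 at day 0, a difference of 0.40 ± 0.30 (limma adjusted p = 0.347 and 0.344). From day 10 to day 22 both had negative differences that did not pass, -0.55 ± 0.28 for Cntn1 (limma adjusted p = 0.249 and 0.330) and -0.66 ± 0.30 for Cntnap1 (limma adjusted p = 0.199 and 0.249). With the slide as a block both passed, at -0.67 and -0.73 (limma adjusted p = 0.0178 and 0.0372). Cntnap2 and Epb41l3 were also lower and passed there (limma adjusted p = 0.0298 and 0.0221). For each of these genes that was 1 of 38 settings. Day 22 against day 0 gave -0.13 ± 0.28 for Cntn1 and -0.26 ± 0.30 for Cntnap1, with 95% intervals of -0.76 to 0.51 and -0.93 to 0.42.

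Cntnap2, the juxtaparanodal Caspr, ran from -0.85 to 0.91 (median 0.34) at day 0, from -0.20 to 0.53 (median 0.31) at day 10 and from -0.98 to -0.07 (median -0.42) at day 22. The low day 0 value of -0.85 was that of the array that stood apart; the other 5 lay between 0.17 and 0.91, above all 6 arrays of day 22. Cntnap2 averaged -0.46 ± 0.32 at day 22 and 0.30 ± 0.56 at day 0, a difference of -0.76 ± 0.28 (limma adjusted p = 0.0584 and 0.0660). Without that array the difference was -0.97 ± 0.22 (limma adjusted p = 0.0104, and 0.00812 with table batches). It also passed in some settings that keep this array, among them the slide as a block (limma adjusted p = 0.00810), 18 arrays with a random block (0.0155) and normexp background correction (0.0483), and in 9 of 38 settings in all. Day 22 against day 10 gave -0.72 ± 0.28 (limma adjusted p = 0.152 and 0.221), and day 10 against day 0 gave -0.04 ± 0.28 (limma adjusted p = 0.930 and 0.933). The 3 Cntnap2 probes correlated with each other at r of 0.87 to 0.93 over the 18 arrays, a description over arrays that share days and batches. At day 22 against day 0 they gave -0.76, -0.60 and -0.71.

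Cntn2, the contactin of the juxtaparanode, was dim, with brightest-probe intensities of 18.2 to 215 on the 18 arrays. Its levels were -4.38 to -1.65 (median -3.74) at day 0, -4.40 to -4.00 (median -4.18) at day 10 and -5.31 to -3.87 (median -4.36) at day 22. The day 0 maximum came from the array that stood apart, and the next highest was -3.63. Cntn2 averaged -4.45 ± 0.34 at day 22 and -3.57 ± 0.86 at day 0, a difference of -0.88 ± 0.38 (limma adjusted p = 0.0945 and 0.0444, the second 0.0776 with the batch as a block). Without that array it was -0.55 ± 0.22 (limma adjusted p = 0.0901), and -0.43 ± 0.24 with table batches (limma adjusted p = 0.201).

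Epb41l3 fell over the whole course. Its levels were 5.07 to 5.44 (median 5.26) at day 0, 4.89 to 5.26 (median 4.98) at day 10 and 4.60 to 5.10 (median 4.78) at day 22. The highest day 22 array reached just above the lowest day 0 array, so the days overlapped by 1 array on each side. It averaged 4.79 ± 0.17 at day 22 and 5.25 ± 0.09 at day 0, a difference of -0.46 ± 0.10, which is 1.38-fold lower (limma adjusted p = 0.00623 and 0.0125). The steps in between, -0.23 ± 0.10 for day 10 against day 0 and -0.24 ± 0.10 for day 22 against day 10, did not pass (limma adjusted p = 0.126 and 0.181, then 0.178 and 0.285). With technical array 2 of each batch alone the whole-course difference was -0.36 (limma adjusted p = 0.126). Within slide 1 it was -0.68 and within slide 2 -0.45, neither past the threshold (limma adjusted p = 0.0801 and 0.0833).

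**Figure D2:**
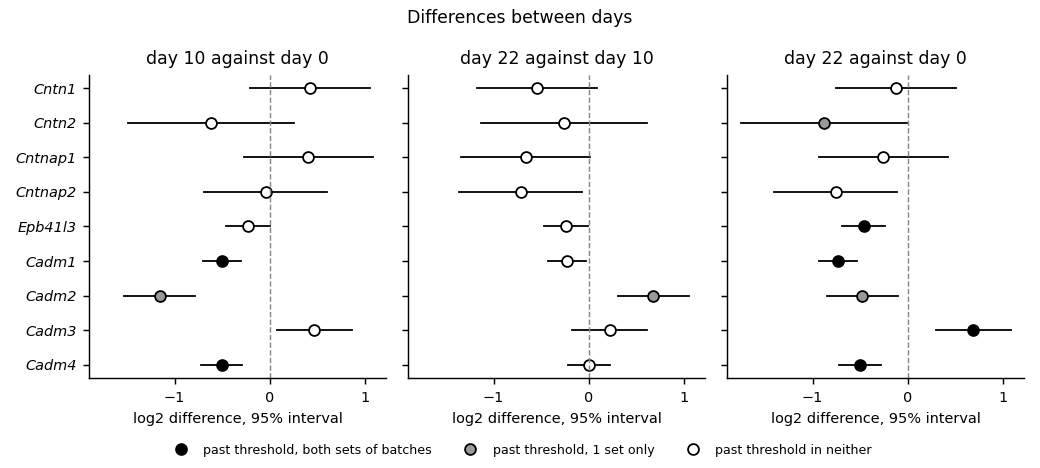
Differences in log2 level between days for the 9 genes, with 95% intervals from limma over the 9 means of file batches. With table batches the SE of Cadm2 was 0.42, against 0.16 here. Filled points passed the threshold with both file and table batches, grey points with 1 of these, open points with neither. Cadm1, Cadm4 and Epb41l3 lie left of 0 and Cadm3 right of it at day 22 against day 0.

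The Cadm genes carried most of the changes. Promoters of Cadm2, Cadm3 and Cadm4 are shown because these genes moved in different ways while Cadm3 and Cadm4 are partners across the internode. They are the 250 bases before the annotated start, from RefSeq on GRCm38.p6, while the array design names mm9, written 5′ to 3′ on the strand of the gene. Cadm2 lies at chr16:67620909-67621158 (minus strand), Cadm3 at chr1:173367696-173367945 (minus strand) and Cadm4 at chr7:24481773-24482022 (plus strand). Capitals mark matches to the motifs searched.
Cadm2: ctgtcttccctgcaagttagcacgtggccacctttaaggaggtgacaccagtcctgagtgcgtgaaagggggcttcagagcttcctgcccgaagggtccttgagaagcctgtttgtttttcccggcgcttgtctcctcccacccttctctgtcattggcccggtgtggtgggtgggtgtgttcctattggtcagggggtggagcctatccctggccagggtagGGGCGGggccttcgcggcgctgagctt
Cadm3: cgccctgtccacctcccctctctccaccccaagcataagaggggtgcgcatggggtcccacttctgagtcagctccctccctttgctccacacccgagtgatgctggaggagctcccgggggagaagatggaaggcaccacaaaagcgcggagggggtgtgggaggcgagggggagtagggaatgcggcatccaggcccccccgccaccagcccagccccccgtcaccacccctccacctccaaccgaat
Cadm4: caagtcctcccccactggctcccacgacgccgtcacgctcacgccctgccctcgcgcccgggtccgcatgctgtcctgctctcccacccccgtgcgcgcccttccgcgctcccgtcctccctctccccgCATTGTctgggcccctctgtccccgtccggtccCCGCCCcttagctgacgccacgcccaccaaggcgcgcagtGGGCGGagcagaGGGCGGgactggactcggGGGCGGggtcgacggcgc

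The motifs, on both strands, were ACAAAG and ACAATG (cores bound by SOX factors), GCGTGGGCG and GCGGGGGCG (sites of the EGR family) and GGGCGG (GC box). Over 32851 mouse promoters of the same length, 16.46%, 10.69%, 0.5358%, 2.572% and 32.74% held them in that order. The Cadm4 promoter held 4 GC boxes, 1 of them on the minus strand, and 1 ACAATG on the minus strand, printed above as its complement CATTGT. The Cadm2 promoter held 1 GC box, and the Cadm3 promoter held none of these letters. Cadm4 had 30 CpG and 75.2% GC, Cadm2 had 10 CpG and 60.8% GC, and Cadm3 had 11 CpG and 66.8% GC. The median of all promoters was 6 CpG and 52.4% GC. Of the 9 genes, 7 had an entry in this table, and Cntnap1 and Cadm1 were named only. A match is a string of letters and not a measured site.

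Cadm4, the Schwann cell side of the internodal pair, was lower from day 10 on. Its levels were 5.67 to 6.26 (median 5.72) at day 0, 5.14 to 5.59 (median 5.29) at day 10 and 5.15 to 5.44 (median 5.36) at day 22. All 6 arrays of day 10 and all 6 of day 22 lay below all 6 of day 0. Cadm4 averaged 5.32 ± 0.07 at day 10 and 5.83 ± 0.17 at day 0, a difference of -0.51 ± 0.10, which is 1.42-fold lower (limma adjusted p = 0.00599 and 0.0309). At day 22 it averaged 5.33 ± 0.04, which is -0.50 ± 0.10 against day 0 (limma adjusted p = 0.00331 and 0.0149). With table batches this SD was 0.12 and this SE 0.12. Within slides 1 and 2 the day 22 differences were -0.55 and -0.51 (limma adjusted p = 0.196 and 0.0816), and those of day 10 were -0.42 and -0.54 (limma adjusted p = 0.257 and 0.123). Day 22 against day 10 gave 0.00 with a 95% interval of -0.21 to 0.22. Without the array that stood apart the day 10 difference was -0.42 ± 0.07 (limma adjusted p = 0.00716, and 0.0484 with table batches). With technical array 1 alone the calls were lost, at -0.31 for day 10 (limma adjusted p = 0.194) and -0.37 for day 22 (limma adjusted p = 0.0696).

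Cadm1 fell by day 10 and over the whole course. Its levels were 2.57 to 3.16 (median 2.77) at day 0, 2.13 to 2.57 (median 2.31) at day 10 and 1.83 to 2.20 (median 2.12) at day 22. Every array of day 22 was below every array of day 0, while day 10 and day 0 met at 2.57. Cadm1 averaged 2.31 ± 0.06 at day 10 and 2.82 ± 0.10 at day 0, a difference of -0.50 ± 0.09 (limma adjusted p = 0.00441 and 0.0298). At day 22 it averaged 2.08 ± 0.12, which is -0.74 ± 0.09 against day 0 and 1.67-fold lower (limma adjusted p = 0.000357 and 0.00284). Day 22 against day 10, -0.23 ± 0.09, did not pass (limma adjusted p = 0.138 and 0.342). Within slides the whole-course difference was -0.95 on slide 1 (limma adjusted p = 0.0271) and -0.65 on slide 2 (limma adjusted p = 0.0770), and that of day 10 was -0.58 and -0.51 (limma adjusted p = 0.0717 and 0.191). The day 10 call was lost with technical array 1 alone, at -0.32 (limma adjusted p = 0.250), and with table batches without the array that stood apart, at -0.41 (limma adjusted p = 0.0575).

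Leaving out single batches changed some of these calls with table batches and none with file batches. With table batches, the Cadm1 fall at day 10 was lost without batch 2 or 3 of day 0 or batch 1 or 3 of day 10 (limma adjusted p = 0.0917 to 0.110). The Cadm4 fall at day 10 was lost without batch 2 or 3 of day 0 or batch 1 or 2 of day 10 (limma adjusted p = 0.0813 to 0.0950). The whole-course falls of Cadm1, Cadm4 and Epb41l3 were past the threshold without any single batch of either kind.

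Cadm3, the axonal partner of Cadm4, rose on its brightest probe. That probe had levels of 0.45 to 1.18 (median 0.97) at day 0, 1.098 to 1.61 (median 1.46) at day 10 and 1.16 to 1.92 (median 1.69) at day 22. The lowest day 22 array lay just below the highest day 0 array. It averaged 1.63 ± 0.27 at day 22 and 0.94 ± 0.25 at day 0, a difference of 0.69 ± 0.17, which is 1.62-fold higher (limma adjusted p = 0.0120 and 0.0251). Day 10 against day 0 gave 0.47 ± 0.17 (limma adjusted p = 0.0734 and 0.130), and 0.0364 with the batch as a block and 0.0471 without the first array of batch 1 at day 22, both with file batches. With table batches the whole-course call was lost without batch 2 of day 0, batch 2 of day 22 or batch 3 of day 22 (limma adjusted p = 0.0686 to 0.0791). Within slide 1 the difference was 0.42 (limma adjusted p = 0.319) and within slide 2 0.65 (limma adjusted p = 0.0980). The whole-course difference was past the threshold in 31 of 38 settings in all.

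The second Cadm3 probe gave another course. Its levels were 0.40 to 1.09 (median 0.91) at day 0, 0.66 to 1.51 (median 1.32) at day 10 and 0.70 to 1.16 (median 0.92) at day 22. Day 22 against day 0 was 0.10 ± 0.18 on this probe (limma adjusted p = 0.681 and 0.699), and the mean of both probes gave 0.40 (limma adjusted p = 0.0877). The brightest probe exceeded the second by a median of 0.14 at day 0, 0.20 at day 10 and 0.73 at day 22. Every day 22 array had a larger gap (0.46 to 0.82) than every day 0 array (-0.10 to 0.27) and every day 10 array (0.07 to 0.44). In the RefSeq annotation 1612 of the 1618 bases of Ackr1, an atypical chemokine receptor gene, lie within Cadm3 on the same strand. Over the 18 arrays the Ackr1 probe correlated with the brightest Cadm3 probe at r of 0.94 and with the second at 0.68, a description over arrays that share days and batches. With the mean of each day taken off, these r were 0.91 and 0.77. Ackr1 differed by 0.93 ± 0.22 between days 22 and 0 (limma adjusted p = 0.0102). Its difference was 0.85 ± 0.22 at day 10 against day 0 (limma adjusted p = 0.0227). At day 22 against day 10, the step at which the gap between the Cadm3 probes widened most, it was 0.08 ± 0.22 (limma adjusted p = 0.875). Which transcripts each probe reads was not tested, so the rise of Cadm3 holds for 1 of 2 probes.

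**Figure D3:**
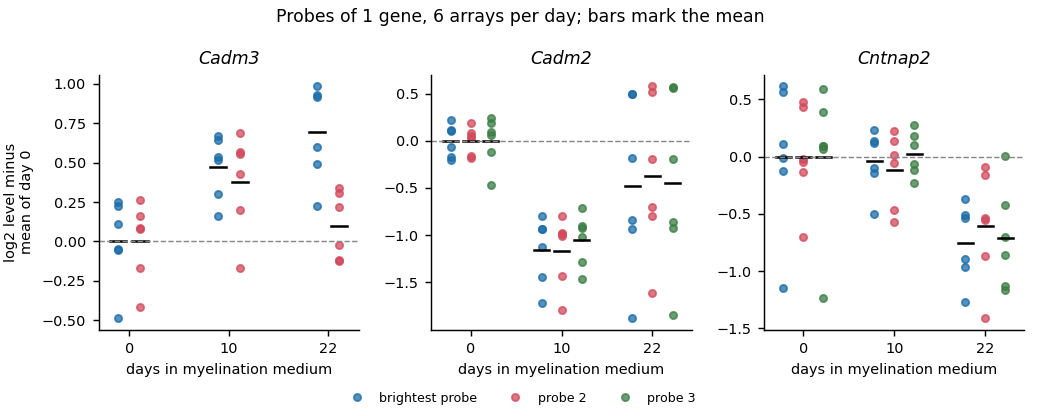
Each probe's log2 level minus its own mean of the 6 day 0 arrays, for the 2 Cadm3, 3 Cadm2 and 3 Cntnap2 probes (points are arrays, bars means). The 2 Cadm3 probes part at day 22, with differences of 0.69 and 0.10 from day 0, while the Cadm2 probes and the Cntnap2 probes keep together.

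Cadm2 had the largest day 10 difference of the set and the widest spread at day 22. Its levels were 0.00 to 0.43 (median 0.23) at day 0, -1.51 to -0.58 (median -0.82) at day 10 and -1.66 to 0.71 (median -0.30) at day 22. All 6 arrays of day 10 lay below all 6 of day 0, while the day 22 arrays spanned more than both together. Cadm2 averaged -0.95 ± 0.26 at day 10 and 0.21 ± 0.07 at day 0, a difference of -1.16 ± 0.16, which is 2.23-fold lower. It passed with file batches (limma adjusted p = 0.00195) and not with table batches (limma adjusted p = 0.09997), where the SE was 0.42. The 3 Cadm2 probes gave -1.16, -1.17 and -1.05, with all arrays of day 10 below those of day 0 on each, and correlated at r of 0.97 to 0.99.

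All 3 days share 1 estimate of the spread, and the 2 fits differed most at day 22. The batch SD of Cadm2 at day 22 was 0.27 with file batches and 0.95 with table batches. The value table pairs the 2 highest arrays, 0.70 and 0.71, as 1 batch. The array files instead pair 0.70 with -1.66, a difference of 2.37 between technical arrays, and 0.71 with -0.63. Day 22 against day 10 gave 0.68 ± 0.16 (limma adjusted p = 0.0369 and 0.432), and day 22 against day 0 gave -0.48 ± 0.16 (limma adjusted p = 0.0427 and 0.411). Neither is called here. Without the first array of batch 1 at day 22, these were 0.29 and -0.87 with file batches (limma adjusted p = 0.683 and 0.0954). With file batches the day 22 against day 10 difference was also past the threshold only in some fits: it was lost without any 1 batch of day 0, without batch 1 or 2 of day 10 and without batch 2 of day 22 (limma adjusted p = 0.0539 to 0.121). The day 22 against day 0 difference was lost without any 1 batch of day 0, batch 1 or 2 of day 10 or batch 1 or 3 of day 22 (limma adjusted p = 0.0508 to 0.120).

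**Figure D4:**
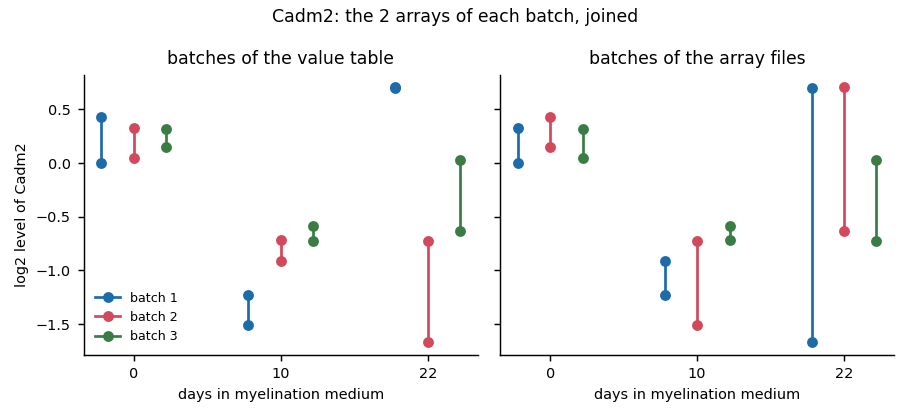
Log2 level of Cadm2 on each array, with the 2 arrays of a batch joined, using table batches (left) and file batches (right). At day 22 the 2 highest arrays (0.70 and 0.71) are 1 batch on the left and belong to different batches on the right.

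Counted over the 9 genes at day 10 against day 0, 0 were higher and 3 lower with file batches, and 0 and 2 with table batches. Of all features, 11.4% were called higher and 17.8% lower with file batches, and 5.89% and 7.94% with table batches. At day 22 against day 10, 1 gene was higher (Cadm2) with file batches and 0 with table batches, against 4.2% and 0.525% of all features called higher and 5.43% and 1.48% called lower. No gene was lower there in either fit. With file batches 4 genes had an unadjusted limma p under 0.05, Cadm2 and, lower, Cntnap2, Epb41l3 and Cadm1. So had 6081 of all 22854 features. At day 22 against day 0, 1 was higher and 4 were lower in each fit, the lower ones being Epb41l3, Cadm1 and Cadm4 with Cadm2 or, with table batches, Cntn2. Of all features 17.1% were higher and 27.3% lower with file batches, and 13% and 19.2% with table batches. The median difference of the 9 genes was -0.23, -0.24 and -0.48 in these comparisons, beside -0.06, -0.02 and -0.08 over all features. Non-overlap of all 6 arrays in the lower direction was seen for 2 genes at day 10 against day 0 (9.16% of all features), 0 at day 22 against day 10 (5.47%) and 2 at day 22 against day 0 (13.3%). The 3 comparisons share groups of arrays and are not independent of each other.

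Several of the genes went with neuronal markers from array to array. The 14 sensory and pan-neuronal markers (among them Tubb3, Uchl1, Nefl and Isl1) were well above background on all 18 arrays, and their mean level was 3.77 to 4.80 at day 0, 4.39 to 4.88 at day 10 and 3.74 to 4.56 at day 22. With file batches, 0 of 14 were called at day 10 against day 0, 1 was lower at day 22 against day 10 and 3 were lower at day 22 against day 0. Of all features, 17.8%, 5.43% and 27.3% were called lower in these comparisons. With table batches 0, 0 and 2 of the 14 were lower, beside 7.94%, 1.48% and 19.2% of all features. The median difference of the 14 markers was 0.17, -0.55 and -0.27, beside -0.06, -0.02 and -0.08 over all features. At day 22 against day 10 the 14 differences ran from -0.88 to -0.07. The summed level of the markers was 8.37 to 9.26 at day 22 and 8.45 to 9.35 at day 0. After the mean of each day was taken off, Cadm3 correlated with the neuronal mean at r of 0.91, Cntn1 and Cntnap1 both at 0.89, Cntnap2 at 0.86 and Epb41l3 at 0.79. Cadm2 had -0.02, Cadm1 -0.10, Cadm4 -0.37 and Cntn2 -0.40. These are descriptions over 18 arrays that share batches, RNA and scaling. Without the array that stood apart, r was 0.87 for Cntn1, 0.83 for Cntnap1, 0.75 for Cntnap2, 0.79 for Epb41l3 and 0.88 for Cadm3. Those of Cadm1, Cntn2, Cadm4 and Cadm2 turned positive, at 0.41, 0.39, 0.14 and 0.03.

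**Figure D5:**
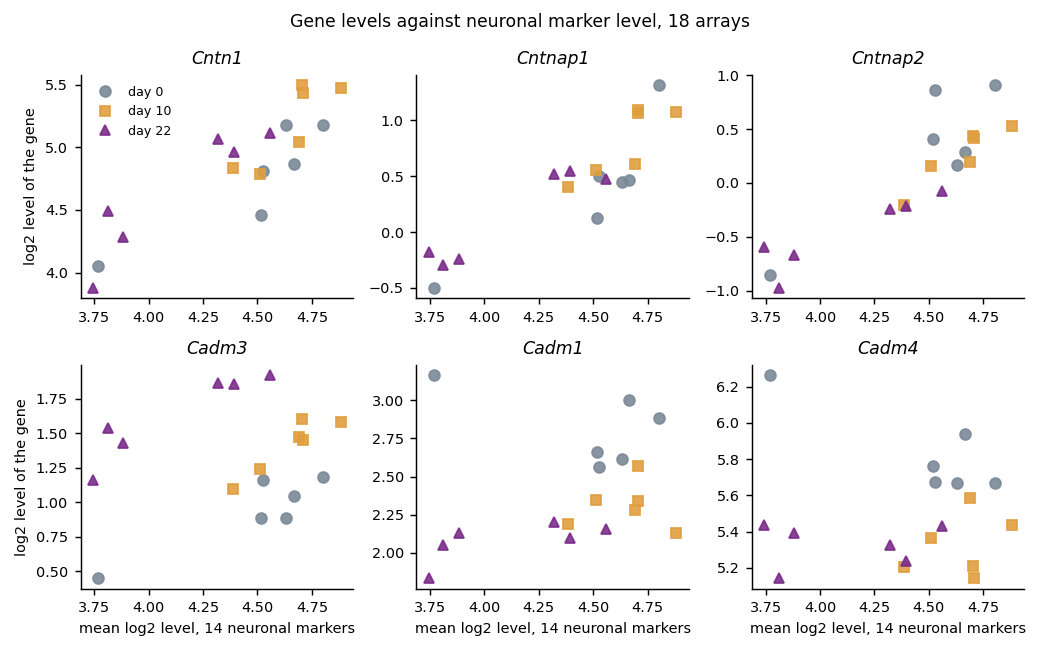
Log2 level of 6 of the genes on each of the 18 arrays against the mean log2 level of 14 neuronal markers on the same array, by day. Cntn1, Cntnap1, Cntnap2 and Cadm3 climb with the neuronal mean within days (r of 0.89, 0.89, 0.86 and 0.91 after the day means were taken off). Cadm1 and Cadm4 have -0.10 and -0.37 (0.41 and 0.14 without the day 0 array that stood apart). The Cadm3 points of the 3 days, from its brightest probe, lie in separate bands. On its second probe, not shown, the ranges relative to the neuronal mean overlapped between the 3 days.

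Set relative to the neuronal mean of the same array, the brightest Cadm3 probe had a median of -3.62 (-3.75 to -3.32) at day 0, -3.26 (-3.30 to -3.10) at day 10 and -2.50 (-2.64 to -2.28) at day 22, and no array of 1 day lay within the range of another. On the second probe the medians were -3.64, -3.46 and -3.21, and the ranges of the 3 days overlapped with each other. Cntnap1 on this scale had medians of -4.19, -3.89 and -4.01, and Cntn1 0.29, 0.52 and 0.56, with overlapping ranges. Cntnap2 had -4.25, -4.36 and -4.58. The part of neuronal RNA content in the levels of these genes was not tested.

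Glial and other markers moved as well. Of 10 markers of myelinating Schwann cells, 8 were higher at day 10 and 6 at day 22 against day 0 with file batches, and 7 and 6 with table batches. Of all features, 11.4% were called higher and 17.8% lower at day 10 with file batches, and 17.1% and 27.3% at day 22. With table batches these shares were 5.89% and 7.94%, then 13% and 19.2%. Of 8 Schwann cell lineage markers, 0 were higher and 1 lower at day 10 against day 0 in both fits, and 0 and 2 at day 22 (1 higher and 3 lower, then 1 and 4, with file batches). All 8 were well above background on all 18 arrays. Their summed level was 7.16 to 7.78 at day 22, 7.57 to 7.93 at day 10 and 8.04 to 8.29 at day 0, without overlap of the later days with day 0. Their mean level did overlap, at 2.84 to 3.601 at day 22, 3.35 to 3.69 at day 10 and 3.56 to 4.08 at day 0, and Cadm4 correlated with it within days at r of 0.08. Of 8 macrophage markers tested, 6 were higher at day 22 in both fits. Cadm1 correlated with the fibroblast mean at r of -0.80 and with the myelinating Schwann cell mean at 0.68 within days, again as descriptions over 18 arrays. Their part in the falls of Cadm1 and Cadm4 was not tested.

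Among themselves, Cntn1 and Cntnap1, which work as a pair, correlated at r of 0.87 after the day means were taken off. Cntnap1 and Cntnap2 had 0.88, and Cntn1 and Cadm3 0.90. The internodal partners Cadm3 and Cadm4 had -0.37 within days and -0.74 over all 18 arrays. By the highest r over the 18 arrays among 14541 other named features, the genes most like Cntnap1 were Pou4f1 (0.97), Unc80 and Kif5c. Those most like Cntn1 were Ncdn (0.95), Nefh and Ncan, and those most like Cntnap2 were Rtn2 (0.97), Prkar1b and Pcdhac2. Epb41l3 was followed most closely by Fam98c (0.96), Eepd1 and Tubb2b, Cadm1 by Smap1 (0.97), Trio and Celf2, and Cadm4 by Zmym5 (0.94), Rab35 and 9530068E07Rik. Cadm2 had Cd81 (0.92), Csmd1 and Ifit2. For Cadm3 the closest were Olfr173 (0.95), BC005624 and its overlapping neighbour Ackr1 (0.94). Cntn2 had the weakest best match, Dcun1d1 (0.84), then Rab12 and Zxdb.

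Of 15 partner genes of the paranode and juxtaparanode, 2 were higher and 0 lower at day 10 against day 0 in both fits, and both were higher at day 22 against day 0. Of all features, 11.4% and 5.89% were called higher at day 10 with file and table batches, and 17.1% and 13% at day 22. Nfasc, which encodes the neurofascins of node and paranode, averaged 2.30 ± 0.14 at day 10 and 1.09 ± 0.38 at day 0, a rise of 1.21 ± 0.27 (limma adjusted p = 0.0131 and 0.0375). At day 22 against day 0 it was 1.07 ± 0.27 (limma adjusted p = 0.0140 and 0.0293). The array does not tell its glial from its neuronal isoforms here. Dlg2, a scaffold of the juxtaparanodal complex, rose by 0.88 ± 0.19 and 0.58 ± 0.19 (limma adjusted p = 0.0105 and 0.0141, then 0.0373 and 0.0285). L1cam was lower at day 22 with file batches alone, at -0.37 ± 0.13 (limma adjusted p = 0.0449 and 0.0830). The median difference of the 15 genes was 0.02 at day 10 and -0.10 at day 22 against day 0, near those of all features. The potassium channel genes Kcna1 and Kcna2 gave -0.32 ± 0.19 and -0.25 ± 0.11 at day 22 against day 0 (limma adjusted p = 0.213 and 0.0930 with file batches).

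Of 14 tested internodal and Cadm partners, 1 rose and 4 fell at day 10 against day 0 in both fits, and 2 rose and 8 fell at day 22 against day 0. Of all features, 17.8% and 7.94% were called lower at day 10 with file and table batches, and 27.3% and 19.2% at day 22. Magi2, 1 of these 14, was well above background on 6, 5 and 4 of 6 arrays at days 0, 10 and 22. It entered the test through day 0 alone, so no difference is given, but it stays in the list tested and its median. Mpp6, a membrane scaffold of the MAGUK family, rose by 1.47 ± 0.14 at day 10 (limma adjusted p = 0.000539 and 0.00687) and was still 0.92 ± 0.14 higher at day 22 (limma adjusted p = 0.00126 and 0.0145). Mpp1, another MAGUK, rose by 0.58 ± 0.13 at day 22. Pard3 and Prkci, which encode polarity proteins, fell by 0.60 ± 0.08 and 0.48 ± 0.08 at day 10 and Mpp3 by 0.67 ± 0.18. The scaffold Cask was also lower at day 10. At day 22 the largest falls were those of Mpp2 (-1.09 ± 0.17), Mpp3 (-1.07 ± 0.18) and Pard3 (-0.75 ± 0.08), and Nectin3 and Nectin1, adhesion molecules related to the Cadm family, gave -0.61 ± 0.09 and -0.55 ± 0.10. Epb41l2, the closest relative of Epb41l3 on the list, fell by 0.46 ± 0.13 (limma adjusted p = 0.0240 and 0.0256). Mag, the glial adhesion protein of the inner myelin membrane, gave 1.01 ± 0.25 at day 10 against day 0 (limma adjusted p = 0.0193 and 0.0525) and 0.33 ± 0.25 at day 22 (limma adjusted p = 0.326 and 0.408). The median difference of this list was -0.20 at day 10 and -0.49 at day 22 against day 0.

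Of 9 further contactin and Caspr genes, 5 were tested, and 0 rose in either fit. Of all features, 11.4% and 5.89% were called higher at day 10 against day 0 with file and table batches. At day 22 against day 10 these shares were 4.2% and 0.525%. At day 22 against day 0, 17.1% and 13% were higher, and 27.3% and 19.2% lower. Cntn3 and Cntn6, contactins of neurons, fell at day 22 against day 0 by 1.89 ± 0.23 (limma adjusted p = 0.000393 and 0.00235) and 1.27 ± 0.24 (limma adjusted p = 0.00357 and 0.00992), with every day 22 array below every day 0 array. Such non-overlap was seen for 13.3% of all features. Cntnap3 gave -0.63 ± 0.22 (limma adjusted p = 0.0475 and 0.126). Cntn5 was well above background on 6, 5 and 3 of 6 arrays at days 0, 10 and 22, and since it entered the test through day 0 alone, no difference is given. Cntnap4, Cntnap5a, Cntnap5b and Cntnap5c were not well above background on all arrays of any day.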

How the data were processed

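Total RNA of 18 samples was hybridised, 1 sample per one-colour Cy3 array, after labelling of 100 ng, per the labels' protocols. The deposited intensity of each spot was extracted by the authors with Agilent Feature Extraction (version 10.7.1 per the submitters' processing notes, 10.7.1.1 per the file headers), which subtracted background. The deposited value table holds intensity on a linear scale with the same distribution in all columns. How it was normalised is not given in the sources used here.

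A level was the log2 processed intensity less that array's log2 75th percentile (584 to 747 on the linear scale), and no spot was saturated. This log2 value was computed here from the deposited intensity. The number of arrays limits the precision, and no sequencing depth applies. Between 54.8% and 61.5% of spots, controls left out, were well above background per array. Probes well above background on all 6 arrays of a day were kept (30431 of 55681). Accessions, which are all the files give in place of gene names, were matched without versions to a RefSeq list of genes (GRCm38.p6) (26582 probes, 20145 symbols), and the arrays' design uses mm9, per the file headers, so gene coordinates were not taken from it. The brightest probe by mean stood for a gene, which left 22854 features.

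Technical arrays were averaged and limma 3.58.1 (R 4.3.3) was fitted to 9 values, 3 per day. The fit was checked on simulated data. The members, the lists and the tests were chosen with earlier results of these data known. Named were all 9 genes, the genes past the threshold in 3 lists of partners and relatives (at most the 6 largest differences per list and comparison), the partners Nfasc, Mag and Epb41l2 in every case, and the 3 genes most like each member. L1cam, Kcna1, Kcna2, Ackr1 and single markers were named after their values were seen. Nectin1 was named beside Nectin3 though outside the 6 largest at day 22 against day 0, and Magi2 for its detection alone. The alternatives of the design were run, except that normexp used the median signal, since the files hold no mean signal.

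The study's design text gives the batch numbers as pools of embryos, so they were taken to pair samples across days, and the replicate block was run as an alternative. Deviations of same-numbered samples correlated at -0.13 to 0.37, over 0.1 in 6 of 9 pairs, with the array files' batches, and at -0.08 to 0.46, in 8 of 9, with those of the value table.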

Additional observations from a re-analysis of the deposited data

Results flagged for a closer look

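Of 27 groups of 6 arrays (9 genes at 3 days) 1 held an array set off from the others. For Cntn2 at day 0, the second array of batch 1 had a level of -1.65, against -3.63 on the next and -4.38 on the lowest array, a gap of 0.728 of the whole range, above Dixon's critical value for 6 samples. Chance flags about 1 in 20 such groups.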

How the results depend on the processing

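In each comparison the number of the 9 genes past the threshold was set beside 38 other settings. At day 10 against day 0 (3 genes) it was 0 with technical array 1 alone, within slide 1 and within slide 2, 5 with 18 arrays and a random block and with slide as a block, 1 without the second array of batch 1 of day 0 in the value table's batches, and 3 to 4 without any 1 batch (0 to 3 in the value table's batches). At day 22 against day 10 (1 gene) it was 0 with the value table's batches, with or without the replicate block, with the authors' values, without the filter, with technical array 1 or 2 alone, with the random block, within either slide and without that day 0 array or the first array of batch 1 of day 22 in either arrangement, 4 with slide as a block, all of them lower, and 0 to 1 without any 1 batch (0 in the value table's batches). At day 22 against day 0 (5 genes) it was 3 with technical array 1 or 2 alone, 1 within slide 1, 0 within slide 2, and 4 to 5 without any 1 batch (3 to 5 in the value table's batches). The replicate block gave 4, 1 and 5 genes. It added Cadm3 at day 10 against day 0 and, with the array files' batches, changed no other call of the 9 genes. For single genes, 894 values kept their side of the threshold, 104 lost it, 28 gained it, and no called difference changed sign. The cause of these differences between settings was not tested. The slide and single-array fits hold fewer arrays. The normexp, day 0 array and day 22 array alternatives, and leaving out batches of the value table, were chosen after seeing the data. Dim probes limit Cntn2, whose second probe was below the filter.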
